A study of Mus musculus with 12 samples.

Results

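Ccr7, Ramp3, Ccl22, Ccl17, Fscn1, Marcksl1, Cacnb3, Socs2, Il4i1 and Ankrd33b are genes whose mRNA is known to mark mature migratory dendritic cells (DCs). These 10 genes were taken from the 55401 genes of a count table of mouse RNA sequencing. They were chosen from measured values of the same 12 libraries, namely their differences between the lines and between culture 1 and cultures 2 and 3, so these differences are given as a description, without a test. All 10 were among the 14079 genes that passed the filter on low values, which asked that at least 2 libraries exceed 0 in log2 CPM (counts scaled to the normalized size of the library, with a prior count of 2 added for the filter). Ramp3, the least abundant, passed it with 2 CtrV and 3 EKO libraries. The cells were Sp37A3, a DC line derived from C57BL/6 mouse spleen and kept in medium with GM-CSF and M-CSF. CtrV cells carried an empty lentiviral vector, and EKO cells had been transduced with lentiCRISPRv2 and a guide against Siglece, the gene of the inhibitory receptor Siglec-E. The EKO line is a pool of several single-cell clones, so a difference between the lines is one between this pool and 1 CtrV line. Cells of both lines were pulsed with ovalbumin (OVA), a protein antigen, or left unpulsed (ut), and all cells, controls included, were stimulated with LPS, a bacterial ligand of Toll-like receptor signalling. The labels give 24 h of processing after these steps. Each of the 4 groups, CtrV ut, CtrV OVA, EKO ut and EKO OVA, held 3 cultures with the replicate numbers 1, 2 and 3. The labels do not say how the cultures were separated, so p-values measure only the spread between these samples, which may be technical.

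Immature DCs take up antigen in tissue, and a mature DC lowers uptake, presents antigen and leaves for the lymph node. CCR7 guides that movement along its ligands CCL19 and CCL21, fascin (Fscn1) bundles actin in the dendrites of the mature cell, and the chemokines CCL17 and CCL22 attract T cells that carry CCR4. Many genes of this state, Ccr7 among them, are transcribed together when a DC matures, with or without a microbial signal.

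Library totals lay between 27116201 and 39698572 counts. All 11 listed DC markers passed the filter, and their summed level was 24473 to 27018 CPM. Cd74, H2-Aa and H2-Ab1 made up 88.8% to 91.2% of that sum, which therefore says little of the others. The 5 macrophage markers summed to 692 to 890.2 CPM. Adgre1 alone had 594 to 703 CPM, so this sum also says little of the others. Defining markers of T cells (at most 0.553 CPM summed), B cells (at most 1.07) and NK cells (at most 0.486) were close to 0, and those of neutrophils had no count. Fibroblast markers summed to at most 0.184 CPM. Epithelial markers summed to 20.8 to 33.0 CPM, and of these 3 genes only Epcam passed the filter. Siglece, the targeted gene, was not lower in the EKO-labelled cells, with 150.2 to 163 CPM in the CtrV and 166 to 235 CPM in the EKO libraries. The mRNA level therefore does not check the labels, and whether reads of an edited transcript are still counted was not examined. The paper reports that clones were screened and that those pooled expressed little or no Siglec-E. Culture 1 stood apart from cultures 2 and 3 for most of the 10 genes in CtrV OVA and EKO ut. In EKO OVA, culture 1 was the highest and culture 2 the lowest for all 10 genes, with culture 3 between them. The line and OVA comparisons of the 10 genes and the list counts are therefore also given with cultures 2 and 3 only.

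Promoters are shown because most of the 10 genes varied together across the libraries. RefSeq windows of GRCm38.p6 (250 bases before to 50 after a start) were at hand for 8 of the 10 genes, and distances below are from the RefSeq start. Those of Fscn1, Marcksl1 and Ccl22, whose libraries did not overlap between the lines, and of Ccl17, the neighbour of Ccl22, are printed 5′ to 3′ on the plus strand up to the base before the annotated gene start, with motif matches in capitals. The RefSeq start follows the printed end directly for Marcksl1 and Ccl17, and lies 12 bases further for Fscn1 and 94 for Ccl22. The windows lie at chr5:142960105-142960342 for Fscn1, chr4:129513331-129513580 for Marcksl1, chr8:94745434-94745589 for Ccl22 and chr8:94810203-94810452 for Ccl17.
Fscn1: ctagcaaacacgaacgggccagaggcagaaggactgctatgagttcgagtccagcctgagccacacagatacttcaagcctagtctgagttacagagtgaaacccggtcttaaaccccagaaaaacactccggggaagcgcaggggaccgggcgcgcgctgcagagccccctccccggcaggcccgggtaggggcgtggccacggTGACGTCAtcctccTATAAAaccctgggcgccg
Marcksl1: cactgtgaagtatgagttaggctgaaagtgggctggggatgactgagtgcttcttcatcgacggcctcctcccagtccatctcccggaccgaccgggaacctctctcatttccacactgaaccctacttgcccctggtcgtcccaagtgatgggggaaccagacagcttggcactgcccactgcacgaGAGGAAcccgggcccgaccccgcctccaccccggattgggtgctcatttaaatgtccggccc
Ccl22: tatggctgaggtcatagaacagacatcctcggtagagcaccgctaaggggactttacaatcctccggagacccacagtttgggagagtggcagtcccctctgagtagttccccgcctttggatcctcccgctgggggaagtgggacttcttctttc
Ccl17: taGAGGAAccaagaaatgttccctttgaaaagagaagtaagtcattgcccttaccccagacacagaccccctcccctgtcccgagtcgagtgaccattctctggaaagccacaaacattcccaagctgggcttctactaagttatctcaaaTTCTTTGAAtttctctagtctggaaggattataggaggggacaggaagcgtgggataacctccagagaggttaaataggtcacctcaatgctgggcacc

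A search of both strands covered 7 motifs in the 9 member windows, of which Cacnb3 had 2, and in 32851 windows of the same length. The Fscn1 window held the cAMP response element TGACGTCA 45 bases before the RefSeq start (in 1.79% of all windows) and the TATA box TATAAA 31 bases before it (13.6%). Ccl17 held a match to the STAT element TTCNNNGAA (8.3%) at 99 bases before the start. The ETS-type match GAGGAA (28.3%) was in the windows of Marcksl1, Ccl17, Il4i1 and Ramp3. A match to the NF-κB consensus, in 4.51% of all windows, was present in the Ramp3 window only. The AP-1 site TGANTCA (7.81%) and the interferon-stimulated response element (3.44%) were in none of the 9. The Ccl22 window held no match to any of the 7. Such matches are letters in a window and not measured binding sites.

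Ccr7 (ENSMUSG00000037944, GRCm38 chr11:99144196-99155077, minus strand) encodes the receptor that steers mature DCs to lymph nodes. Its level in cultures 1, 2 and 3 was 62.3, 102 and 153 CPM in CtrV ut, 182, 51.5 and 50.4 in CtrV OVA, 404, 137 and 118 in EKO ut, and 534, 132 and 402 in EKO OVA. Culture 1 was thus the highest in 3 groups and the lowest in CtrV ut, and the lines overlapped with and without OVA. The group means were 106 ± 45.4, 94.7 ± 75.8, 219.6 ± 159.8 and 356 ± 205 CPM (SD, n = 3 each). In bulk RNA, fewer cells that express a gene and less RNA of it per cell cannot be told apart. Ramp3 (ENSMUSG00000041046, chr11:6658521-6677475, plus strand) encodes an accessory protein that changes the ligand preference of the calcitonin receptor-like receptor. It had 11, 15 and 29 counts in CtrV ut, 36, 3 and 10 in CtrV OVA, 43, 1 and 0 in EKO ut and 96, 15 and 67 in EKO OVA. The floor of 3 counts equals 0.0785 to 0.110 CPM, so cultures 2 and 3 of EKO ut were below what could be seen, and fitted values of Ramp3 that include EKO ut rest on culture 1 there.

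Ccl22 and Ccl17 encode the ligands of CCR4 and are neighbours on chromosome 8, with 58753 bases between them on the same strand. Ccl22 (ENSMUSG00000031779, chr8:94745590-94751699) had 313, 435 and 679 CPM in CtrV ut and 833, 263 and 277 in CtrV OVA. EKO-labelled cells reached 2979.7, 995 and 823 CPM when unpulsed and 3575, 899 and 2103 CPM when pulsed. Every EKO library was therefore above every CtrV library of the same pulse, and the highest library was 13.6 times the lowest. Ccl17 (ENSMUSG00000031780, chr8:94810453-94812036) stayed nearer to one level, with 346, 331 and 327 CPM in CtrV ut, 482, 319 and 238 in CtrV OVA, 665, 319 and 316 in EKO ut and 724, 289 and 435 in EKO OVA. Its lines overlapped in both pulse states, and the 3 CtrV ut cultures differed by no more than 1.06-fold.

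Fscn1 (ENSMUSG00000029581, chr5:142960343-142973185, plus strand) had 149.9, 191 and 241 CPM in CtrV ut and 342, 120.2 and 118 in CtrV OVA. The EKO-labelled cells had 1399, 427 and 387 CPM without and 1699, 404 and 862 CPM with OVA. The lowest EKO culture was thus above the highest CtrV culture in both pulse states. Marcksl1 (ENSMUSG00000047945, chr4:129513581-129515985, plus strand), whose protein binds actin and calmodulin at the membrane, separated the lines with little spread between cultures. It had 80.7, 90.5 and 103 CPM in CtrV ut, 119, 76.0 and 73.2 in CtrV OVA, 291, 249 and 269 in EKO ut and 319.7, 257 and 308 in EKO OVA.

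Cacnb3 (ENSMUSG00000003352, chr15:98630840-98644529, plus strand) encodes a beta subunit of voltage-gated calcium channels. It had 15.2, 20.4 and 31.9 CPM in CtrV ut, 34.7, 12.1 and 14.7 in CtrV OVA, 133, 31.8 and 27.2 in EKO ut and 149, 34.4 and 98.8 in EKO OVA. The lines overlapped in each pulse state by the highest CtrV culture alone. Ankrd33b (ENSMUSG00000022237, chr15:31291478-31367726, minus strand), an ankyrin repeat gene, had the widest range of the genes with counts in every library. Its level was 2.01, 3.26 and 3.44 CPM in CtrV ut, 5.19, 1.45 and 1.23 in CtrV OVA, 20.0, 3.56 and 2.08 in EKO ut and 21.3, 4.21 and 11.3 in EKO OVA, a ratio of 17.4 between the highest and the lowest library.

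Il4i1 (ENSMUSG00000074141, chr7:44816387-44840809, plus strand) encodes a secreted amino acid oxidase that lowers T cell responses. It had 15.7, 19.6 and 20.0 CPM in CtrV ut, 29.4, 12.99 and 11.4 in CtrV OVA, 88.0, 37.1 and 30.6 in EKO ut and 100.8, 40.1 and 54.3 in EKO OVA, with no overlap between the lines in either pulse state. Of its exon bases, 85.9% overlap Atf5 and Tbc1d17 on the other strand, and the sources do not say whether the counting used the strand. Another overlap, of 2.38%, is with Nup62 on the same strand, which had 88.0 to 117 CPM. Atf5 and Tbc1d17 had 4.44 to 9.81 and 17.4 to 45.9 CPM. Their line differences were 0.54 and 0.80 (log2) with OVA and 0.32 and 0.58 without, smaller than those of Il4i1. The part of these neighbours in the counts of Il4i1 was not tested. Socs2 (ENSMUSG00000020027, chr10:95385362-95417180, minus strand), an inhibitor of cytokine and growth hormone receptor signalling, was the gene with a lower mean in EKO-labelled cells in both pulse states. It had 89.1, 98.3 and 99.2 CPM in CtrV ut, 99.98, 92.0 and 86.7 in CtrV OVA, 107, 53.1 and 49.5 in EKO ut and 105, 55.3 and 75.1 in EKO OVA. Culture 1 of the EKO-labelled cells lay above every CtrV culture, and cultures 2 and 3 lay below every one.

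**Figure D1:**
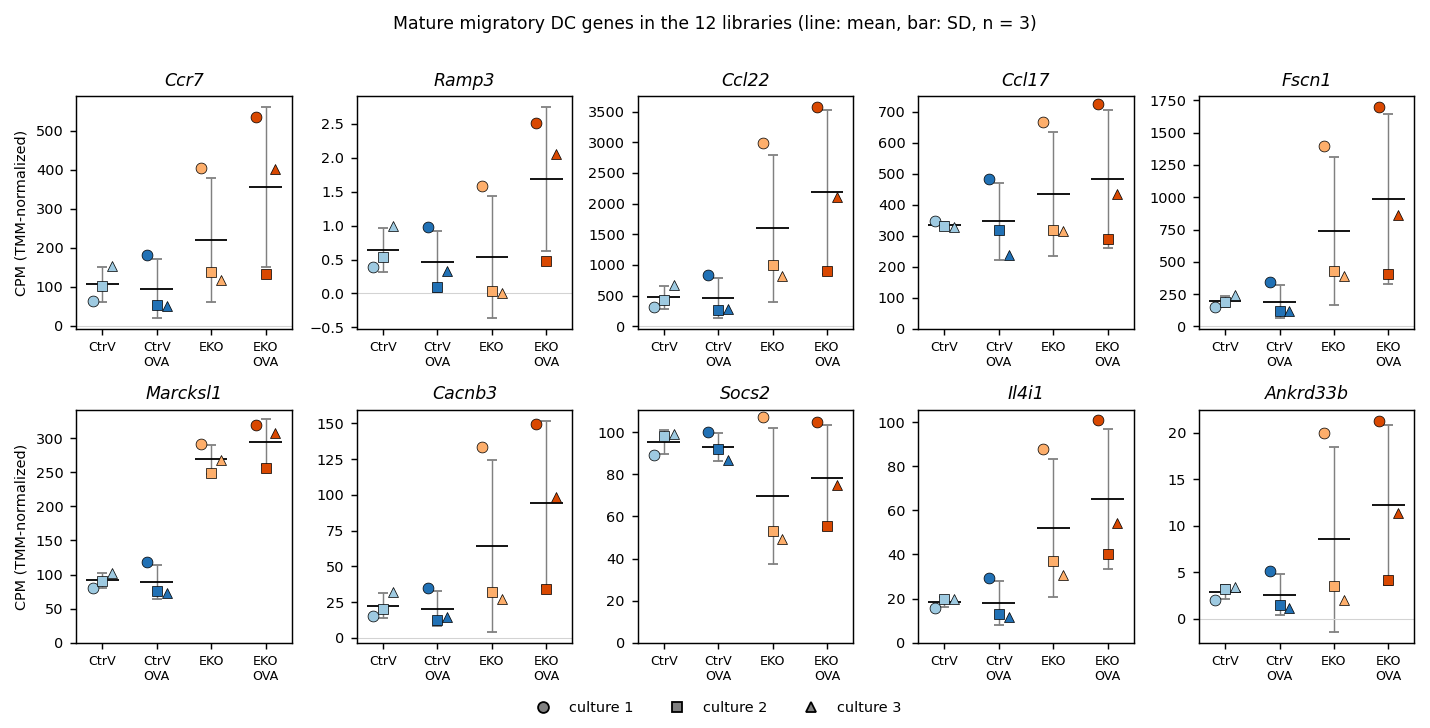
Level of each of the 10 genes (CPM, linear scale) in the 12 libraries by group; the symbol gives the culture, the line the mean and the bar the SD (n = 3), which falls below 0 where 1 culture is far above the others. EKO OVA culture 1 was the highest library for 9 of the 10 genes, and EKO ut culture 1 for Socs2.

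Levels of different genes were compared per kilobase of exon. Ccl17 was the most abundant in CtrV ut at 651 CPM per kilobase (mean of 3 cultures), followed by Ccl22 at 205. Next came Fscn1 (64.4), Marcksl1 (56.9) and Ccr7 (53.5), whose cultures overlapped, and then Socs2 (10.02), with the other 4 genes below 6. The order of the means in CtrV OVA was the same. In the EKO-labelled cells Ccl22 (688 without and 943 with OVA) came level with Ccl17 (844 and 939), and their cultures overlapped. Fscn1 (245 and 328), Marcksl1 (168 and 184) and Ccr7 (111 and 179.9) followed, each overlapping the next. Cacnb3 (16.0 and 23.5) and Il4i1 (12.7 and 16.0) were above Socs2 (7.33 and 8.24) by their means, but the cultures overlapped.

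The first comparison asked how the EKO-labelled cells differed from CtrV cells. With OVA, 9 of the 10 genes had a higher fitted level in EKO-labelled cells and Socs2 a lower one, and the median log2 fold change over the 10 was 1.92, beside 0.00 over all tested genes. Fscn1 had the largest difference with 2.33 (SE 0.42), a fold of 5.04, followed by Ccl22 with 2.27 (SE 0.47), Ankrd33b with 2.25 (SE 0.58) and Cacnb3 with 2.16 (SE 0.49). Ccr7 differed by 1.96 (SE 0.52), Il4i1 by 1.87 (SE 0.29), Ramp3 by 1.86 (SE 0.72) and Marcksl1 by 1.73 (SE 0.15). The difference was 0.45 (SE 0.21) for Ccl17 and -0.28 (SE 0.21) for Socs2. Since these values chose the genes, no p is given.

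Without OVA the median was 1.12, again beside 0.00. Fscn1 and Marcksl1 each differed by 1.55 (SE 0.42 and 0.15), Ccl22 by 1.40 (SE 0.47), Il4i1 by 1.30 (SE 0.30), Ankrd33b by 1.12 (SE 0.61) and Cacnb3 by 1.12 (SE 0.50). The values were smaller for Ccr7 (0.72, SE 0.52) and Ccl17 (0.26, SE 0.21), and negative for Socs2 (-0.53, SE 0.21) and Ramp3 (-0.52, SE 0.90). The libraries of Ccl22, Fscn1, Marcksl1 and Il4i1 did not overlap between the lines in both pulse states, EKO being higher. Over all tested genes, EKO was higher without overlap for 27% with OVA and 24.1% without OVA.

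The difference without OVA rested largely on culture 1. With cultures 2 and 3 only, the median of the 10 genes was 0.149 without OVA, whereas with OVA it stayed between 1.70 and 2.32 under every alternative run. It was 0.314 without CtrV ut culture 1 and 0.551 without EKO ut culture 1. In that reduced fit Marcksl1 kept a difference of 1.42 without OVA, and Fscn1 (0.94), Il4i1 (0.78) and Ccl22 (0.77) had smaller ones. Ccr7 (0.06), Ccl17 (-0.05), Cacnb3 (0.24) and Ankrd33b (-0.24) were close to 0, and Socs2 was at -0.94. With OVA the same fit gave 2.27 for Ccr7, 2.39 for Ccl22, 2.35 for Fscn1, 2.21 for Cacnb3, 2.49 for Ankrd33b and 1.91 for Marcksl1. Single libraries were also compared by replicate number (1, 2 and 3 in turn), which alone pairs them. The median of EKO minus CtrV without OVA was then 2.59, 0.53 and -0.14 (log2), with 10, 7 and 4 genes higher in EKO. With OVA it was 1.66, 1.56 and 2.54, with 10, 8 and 9 genes higher.

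**Figure D2:**
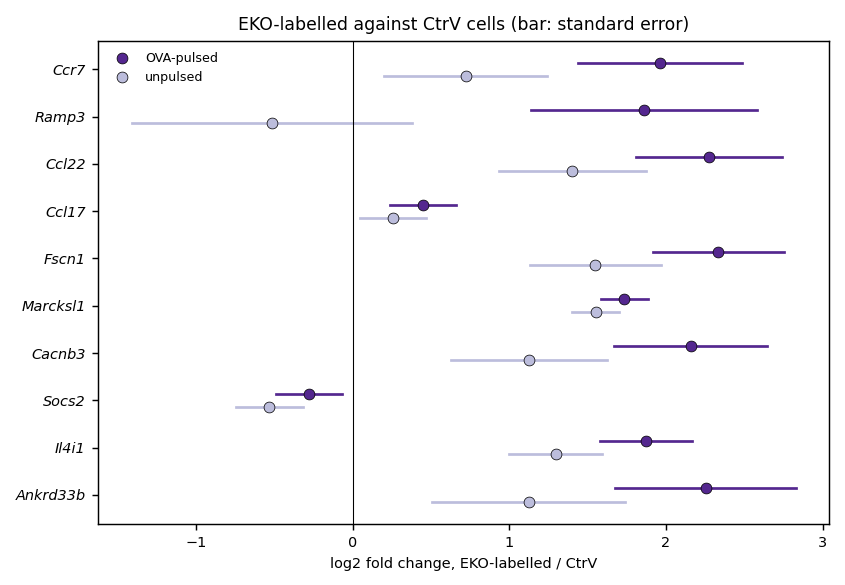
Log2 fold change of EKO-labelled against CtrV cells for each of the 10 genes in OVA-pulsed and unpulsed cells, from all cultures; bars are standard errors of the edgeR fit. Every gene but Socs2 lies above 0 with OVA, and the unpulsed value is below the pulsed one for each gene, nearest for Marcksl1 and Ccl17.

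Culture 1 was then set against the mean of cultures 2 and 3 of its own group on log2 CPM. The median difference of the 10 genes was -0.61 in CtrV ut, 1.45 in CtrV OVA, 1.69 in EKO ut and 1.22 in EKO OVA, where the median over all tested genes lay between -0.0114 and 0.0093. The 99th percentile of all tested genes was 0.95, 1.16 and 1.00 in the last 3 groups, below the medians of the 10 genes. Culture 1 was at least 2-fold above the mean of the others for 7 of the 10 genes in CtrV OVA, 9 in EKO ut and 8 in EKO OVA, and for 0 in CtrV ut, with Ramp3 in EKO ut set against 1 and 0 counts. Over all tested genes these shares were 0.874%, 1.57%, 0.994% and 0.0781%. The EKO OVA count rested largely on culture 2. The median log2 difference there was 0.66 against culture 3 alone and 2.01 against culture 2 alone. In CtrV ut, Ccr7 was at least 2-fold lower in culture 1 (0.499-fold), as were 0.263% of all genes. These comparisons chose the genes too and support nothing by themselves.

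Culture 1 was the highest of the 3 cultures for all 10 genes in CtrV OVA, EKO ut and EKO OVA, beside 36.9%, 42.1% and 38.4% of all tested genes. In CtrV ut, culture 3 was the highest for 9 genes, Ccl17 being the exception, beside 45.1% of all genes. The size differed by gene. Ankrd33b was 3.70-fold, 7.13-fold and 3.05-fold higher in culture 1 of CtrV OVA, EKO ut and EKO OVA. Cacnb3 was 2.59-fold, 4.52-fold and 2.56-fold higher, and Fscn1 2.88-fold, 3.44-fold and 2.88-fold. Ccr7 was 3.57-fold, 3.17-fold and 2.32-fold higher, and Ccl22 3.08-fold, 3.29-fold and 2.60-fold. Marcksl1 differed least in EKO ut and EKO OVA, with 1.13-fold and 1.14-fold, and Socs2 in CtrV OVA, with 1.12-fold. In EKO OVA, culture 2 was the lowest for all 10 genes and culture 3 was intermediate, with Ccr7 at 402 CPM and Fscn1 at 862 CPM. Culture 1 was the deepest library of CtrV OVA (36876844 counts) and of EKO OVA (39698572 counts) and the shallowest of EKO ut (27792723 counts), and the part of depth in these values was not tested. Of the 11 DC markers, 0 in CtrV OVA, 2 in EKO ut (Flt3 and Batf3) and 1 in EKO OVA (Flt3) were at least 2-fold higher in culture 1. Of the 5 macrophage markers, Mertk was so in EKO ut. The part of these cell types in the values was not tested either.

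**Figure D3:**
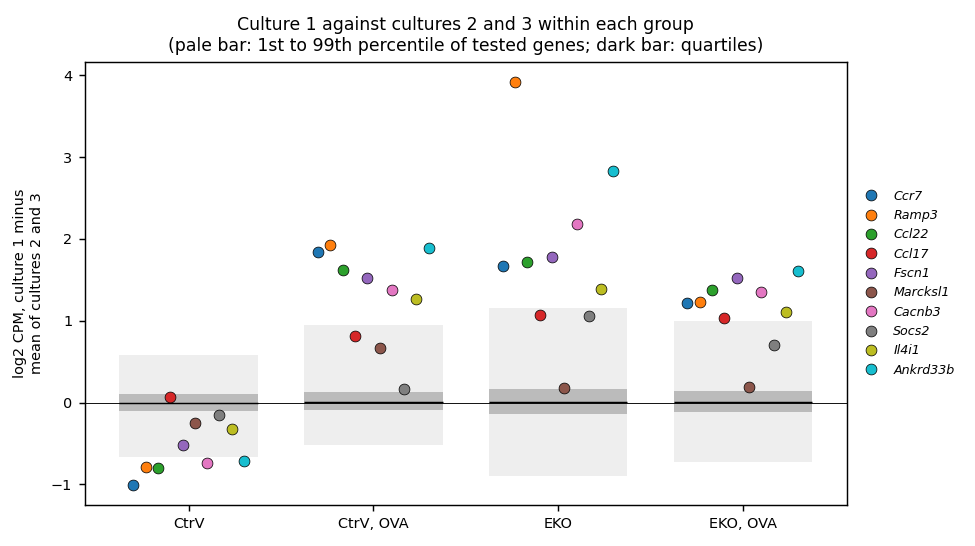
Log2 difference of culture 1 from the mean of cultures 2 and 3 in each group, for the 10 genes (points) and all tested genes (1st to 99th percentile and quartiles). In CtrV OVA, EKO ut and EKO OVA most of the 10 genes lie above the 99th percentile, and in CtrV ut most lie below 0.

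The spread between cultures was summarised as the SD of log2 CPM within groups, pooled over the 4 groups. It was 1.46 for Ramp3, the highest of all 14079 tested genes at counts near the floor, and 1.18 for Ankrd33b, with 7 genes above it. Cacnb3 (0.96), Ccr7 (0.95), Ccl22 (0.90) and Fscn1 (0.87) each had fewer than 40 genes above them, 21, 22, 31 and 39. Il4i1 (0.65), Ccl17 (0.52) and Socs2 (0.39) exceeded 99.05%, 97.96% and 94.9% of the genes. Marcksl1, at 0.23, exceeded 81.0%, and the median gene was at 0.123. The comparison of cultures that chose the genes enters this SD, which is therefore a description as well.

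**Figure D4:**
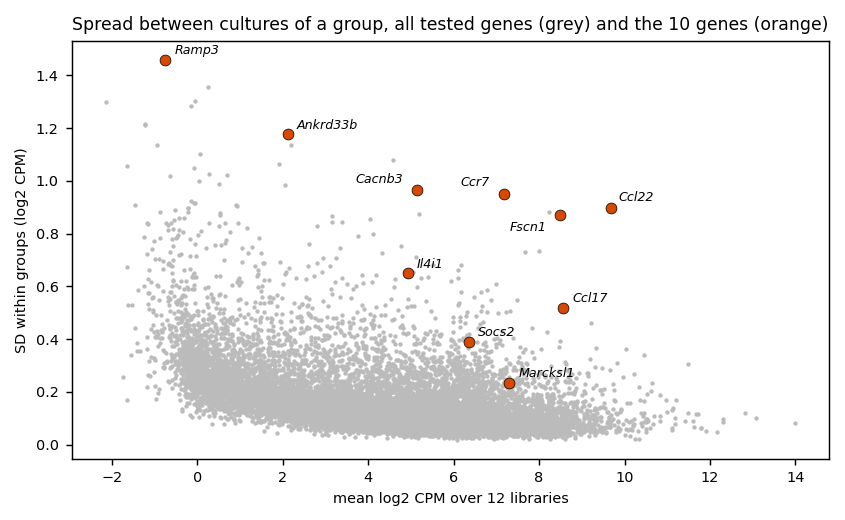
SD of log2 CPM between cultures within groups against the mean log2 CPM of each tested gene (grey), with the 10 genes in orange. Ramp3, Ankrd33b, Cacnb3, Ccr7, Ccl22 and Fscn1 lie at the upper edge of the cloud, and Marcksl1 lies within it.

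The second comparison asked whether the OVA pulse changed the 10 genes within a line. This contrast was not used to choose them. The differences between cultures that did choose them enter the error of its test. A lack of calls among them may therefore follow in part from that choice. In CtrV cells the fitted values were all below 0, with a median of -0.36, from -0.56 for Ramp3 and -0.53 (95% interval -1.69 to 0.64) for Ccr7 to -0.03 (-0.50 to 0.44) for Ccl17. In EKO-labelled cells they were all above 0, with a median of 0.46. Ccr7 was at 0.71 (-0.41 to 1.84), Ankrd33b at 0.73 (-0.40 to 1.86), Cacnb3 at 0.64 (-0.38 to 1.67), Ccl22 at 0.47 (-0.53 to 1.47), Fscn1 at 0.45 (-0.43 to 1.34) and Marcksl1 at 0.13 (-0.19 to 0.45). None of the 10 passed in either line (edgeR quasi-likelihood test, Benjamini-Hochberg adjusted p = 1 for each), nor did any of the 14079 genes (0% called in both contrasts). An unadjusted p under 0.05 was reached by 231 genes in CtrV (1.64%) and 394 in EKO-labelled cells (2.8%), among them Ramp3 in the latter (1.82, 0.18 to 3.45, unadjusted p = 0.032). DESeq2 called 0 genes in both contrasts, with 44 and 156 at an unadjusted p under 0.05. The intervals of Ccr7, Ccl22, Fscn1, Cacnb3 and Ankrd33b still hold changes of 2-fold in EKO-labelled cells, so these cultures do not exclude a change of that size.

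No member passed in CtrV cells when only cultures 2 and 3 were fitted, with -1.28 for Ccr7, -1.004 for Ccl22 and -0.84 for Fscn1 and adjusted p from 0.778 to 0.894 over the 10 (edgeR). In EKO-labelled cells Ccr7 was at 0.93, Ccl22 at 0.62 and Fscn1 at 0.57. The sign in CtrV cells rested on single libraries. Without CtrV ut culture 3, 8 of the 10 genes turned positive, and without CtrV ut culture 2, 6 did. Leaving out CtrV OVA culture 3 turned 2 genes and CtrV OVA culture 1 turned 1. Between libraries of the same replicate number, OVA minus ut in CtrV had a median of 1.17 for number 1 with all 10 genes up. It was -0.70 and -1.07 for numbers 2 and 3, with all 10 down. Only the number pairs these libraries, whose deviations correlated by 0.0893, 0.185 and 0.385. Each value is thus a difference of single libraries, and the 10 genes are no repeats of it. In EKO-labelled cells the medians were 0.18, 0.05 and 1.25, with 9, 6 and 10 genes up. In cultures 2 and 3 only, Ramp3 was called in the OVA contrast of EKO-labelled cells (adjusted p = 0.045, edgeR, 1 of 4 genes), where its libraries held 1, 0, 15 and 67 counts. The dependence of the line difference on OVA, fitted as an interaction, is made of the line differences that chose the genes and is given as a description. It had a median of 0.83 over the 10 genes, with 1.24 for Ccr7, 1.03 for Cacnb3, 0.87 for Ccl22 and 0.18 for Marcksl1. Over all tested genes, 0% were called in it by edgeR, with 269 (1.91%) at an unadjusted p under 0.05, and 0 by DESeq2, with 103 at that limit.

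**Figure D5:**
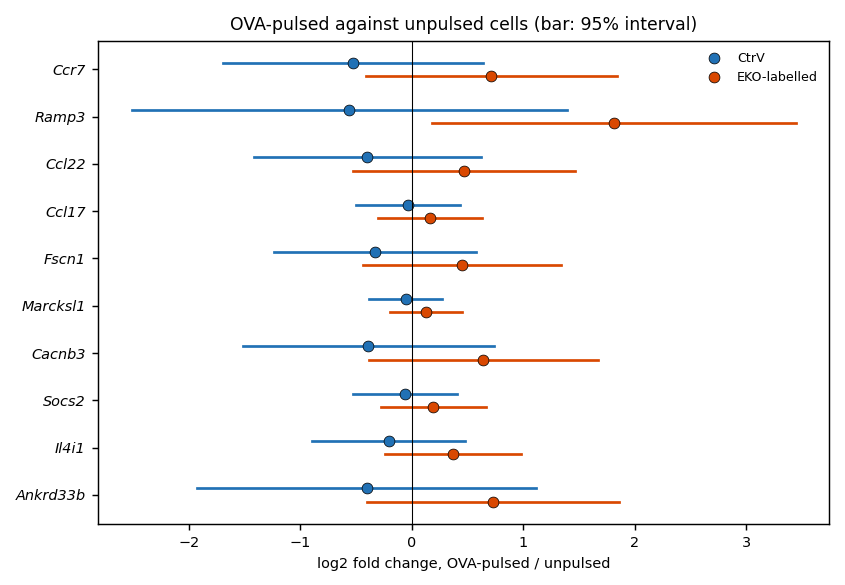
Log2 fold change after the OVA pulse, by line, for the 10 genes, with 95% intervals of the edgeR fit. The points lie below 0 in CtrV and above 0 in EKO-labelled cells, and 1 interval, that of Ramp3 in EKO-labelled cells, leaves out 0.

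Profiles over the 12 libraries were compared by the root-mean-square difference of log2 CPM after centring each gene. The gene nearest to Ccr7 was a member, Cacnb3 (0.220), and Ccl22 (0.281), Ankrd33b (0.351), Fscn1 (0.359) and Il4i1 (0.380) were also close. Marcksl1 (0.664, rank 136 among the 14079 tested genes) and Ccl17 (0.746, rank 241) were further off. Ramp3 (1.06, rank 4804) and Socs2 (1.10, rank 6742) were not close, and a flat profile was at 1.10, with 6635 genes nearer. The nearest genes that are no members were Apol7a (0.249), Gm8221 (0.253), Nudt17 (0.270), Dusp4 (0.273) and Apol7c (0.282). Apol7a, Apol7c and Gm8221 belong to a family of near-identical genes, so the split of reads among them is uncertain. Nearest to the mean of the 10 genes were Nudt17 (0.127), Gm8221 (0.166), Apol7a (0.208), Anxa3 (0.215) and Prdm1 (0.232). Prdm1, which encodes the transcriptional repressor Blimp-1, had 4.30, 5.30 and 5.19 CPM in CtrV ut, 7.97, 2.33 and 2.25 in CtrV OVA, 20.7, 7.46 and 4.83 in EKO ut and 23.8, 8.53 and 13.8 in EKO OVA. Dusp4, a phosphatase of MAP kinases, had 0.181 to 0.892 CPM in CtrV and 0.459 to 3.14 CPM in EKO-labelled libraries with the same order of cultures in EKO OVA. These points share library, depth and normalization, and nearness in profile was not tested.

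Relatives and partners of the 10 genes were listed with earlier results of these data known, 23 in all, and 14 passed the filter. Between the lines, 8 of the 14 were higher in EKO-labelled cells with OVA and 10 without, and 0 were lower (edgeR, adjusted p under 0.05). Over all tested genes 25.1% were higher and 21.9% lower with OVA, and 24.5% and 21.9% without. The median log2 fold change of the list was 0.40 with and 0.45 without OVA. Ccr4, the receptor of CCL17 and CCL22, rose by 3.55 (SE 0.47, adjusted p = 0.000129) with OVA and 3.09 (SE 0.48, adjusted p = 0.000416) without (edgeR), from levels of 0.0302 to 0.251 CPM in CtrV to 0.515 to 2.20 CPM in EKO-labelled cells. Ccr4 and Adm, both counted among the higher genes in each pulse state, passed the filter through EKO libraries alone. They could thus be tested only because they were high there. In the fit of cultures 2 and 3 alone, 9 relatives were higher with OVA and 10 without, beside 22.4% and 21.5% of all tested genes, and Ccr4 was at 3.91 and 2.44. Ccl19 and Ccl21a, the ligands of CCR7, had 0 counts in every library.

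In the SOCS family, feedback inhibitors of cytokine signalling, Socs3 rose by 1.60 with and 1.61 without OVA and Cish by 0.97 and 0.83, where Socs2 had -0.28 and -0.53. Socs3 had 20.6 to 29.6 CPM in CtrV and 60.9 to 96.5 in EKO-labelled libraries, without overlap. Socs7 rose by 0.35 and 0.39 and Socs1 by 0.45 (adjusted p = 0.0041, edgeR) and 0.31 (adjusted p = 0.030). Without the replicate block, Socs1 lost its call with OVA (0.45, adjusted p = 0.059). Without OVA its call was lost when CtrV ut culture 1 or 2 or EKO ut culture 2 or 3 was left out (0.22 to 0.33). Socs4 was called only without OVA (0.23, adjusted p = 0.032; 0.16, adjusted p = 0.11 with OVA), a difference between pulse states that was not called (0 of 14 genes in the interaction), and leaving out CtrV ut culture 1 or 3 or EKO ut culture 1 or 3 ended it. Socs6 (0.12 and 0.05) and Socs5 (-0.11 and -0.07) were not called.

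Among the RAMP genes and their partners, Adm, the gene of adrenomedullin, rose by 3.29 (SE 0.33) with and 2.77 (SE 0.30) without OVA, from 0.054 to 0.179 CPM in CtrV to 0.646 to 0.990 CPM in EKO-labelled libraries. As stated above, Adm could be tested only because it was high in EKO libraries. Ramp1 was called without OVA (0.70, adjusted p = 0.033, edgeR), which leaving out CtrV ut culture 2 or 3 or any EKO ut culture ended, and had 0.18 with OVA. Ramp2 (-0.06 and -0.04) and Calcrl (0.09 and 0.29), the receptor that RAMP proteins modify, were not called with all cultures in edgeR. Over the alternative runs in edgeR or DESeq2, Calcrl ranged from -0.04 to 0.43 with OVA (lowest adjusted p = 0.0052). Without OVA it ranged from 0.17 to 0.50 (lowest adjusted p = 0.0028), so its call depended on the run. Marcks, the relative of Marcksl1, rose by 0.59 and 0.50, with 375.4 to 434 CPM in CtrV and 565 to 612 in EKO-labelled libraries. Cacnb2, another calcium channel beta subunit, rose by 1.38 and 1.46, at no more than 2.67 CPM. In the culture comparison, 1 of the 14 relatives (Ccr4) was at least 2-fold higher in culture 1 of EKO ut and 1 of EKO OVA, and 0 in the CtrV groups. The shares over all tested genes in EKO ut and EKO OVA were 1.57% and 0.994%.

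Other genes of the maturation programme were listed by role, 34 in all, and 30 passed the filter. With OVA, 26 of 30 were higher in EKO-labelled cells and 0 lower, with a median of 0.93. Without OVA, 21 were higher and 0 lower, with a median of 0.83. By role, these were 7 and 7 of 9 genes of co-stimulation and maturation, 2 and 1 of 3 regulatory molecules, 7 and 5 of 8 genes of NF-κB and survival, and 10 and 8 of 10 genes of movement, transport and other functions. Beside these stand the shares over all tested genes, 25.1% higher and 21.9% lower with OVA and 24.5% and 21.9% without. With cultures 2 and 3 only, 26 were higher with and 19 without OVA, beside 22.4% and 21.5% of all genes. Fabp5 and Fas passed the filter through EKO libraries alone. The list was compiled with results of these libraries known.

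Il12b, the shared subunit of IL-12 and IL-23, rose by 4.55 (SE 0.25) with OVA and 4.35 (SE 0.25) without. It had 14.3 to 30.7 CPM in the CtrV and 358 to 660.2 CPM in the EKO-labelled libraries. Cd83, a surface marker of mature DCs, rose by 3.60 (SE 0.35) and 3.03 (SE 0.35), from 3.75 to 8.83 CPM to 36.0 to 106 CPM. Both were still called with cultures 2 and 3 only, Il12b at 4.64 and 4.23 and Cd83 at 3.55 and 2.44. Tnfrsf9 (0.52, adjusted p = 0.13; -0.03 without OVA) and Il15ra (0.16 and 0.26) were not called in edgeR with all cultures. With cultures 2 and 3 only, Tnfrsf9 was called in opposite directions, at 0.62 with OVA (adjusted p = 0.0097, edgeR) and -0.53 without (adjusted p = 0.021).

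Cd274, the gene of the inhibitory ligand PD-L1, rose by 1.84 (SE 0.20) with and 1.58 (SE 0.20) without OVA, with 40.8 to 74.7 CPM in CtrV and 125 to 253 CPM in EKO-labelled libraries (1.89 and 1.33 with cultures 2 and 3 only). Pdcd1lg2, the gene of PD-L2, passed with OVA (0.88, adjusted p = 0.043, edgeR) and had 0.49 (adjusted p = 0.26) without; the difference between the pulse states, 0.39, was not called (adjusted p = 1). The call with OVA ended without the block (0.90, adjusted p = 0.156), with cultures 2 and 3 only (0.87, adjusted p = 0.050), and when CtrV OVA culture 1 or 3 or EKO OVA culture 1 or 3 was left out (0.64 to 0.91). Fas (0.42 and 0.26), a death receptor, was not called.

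Bcl2l1, which protects against cell death, rose by 1.40 and 1.42, from 111 to 153 CPM in CtrV to 291 to 349.7 in EKO-labelled libraries. Stat4, a transducer of IL-12 signals, rose by 1.98 (adjusted p = 0.0047, edgeR) with OVA and had 0.61 (adjusted p = 0.32) without, where cultures 2 and 3 only gave -0.41; the interaction (1.37) was not called (adjusted p = 1). Its exons share 26.7% of their bases with Gm28177 on the same strand, so its counts are uncertain. Nfkb2, a subunit of the non-canonical NF-κB pathway, rose by 0.46 with OVA (adjusted p = 0.0039, edgeR) and had 0.27 (adjusted p = 0.051) without; leaving out CtrV ut culture 3 brought the latter to 0.34 (adjusted p = 0.039). Irf4 had 0.23 (adjusted p = 0.20) and 0.05, and with OVA was called when EKO OVA culture 2 was left out (0.37, adjusted p = 0.035, edgeR).

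Ccl5, a chemokine for T cells and other leukocytes, rose by 3.37 (SE 0.44) with OVA and 2.92 (SE 0.44) without. Like most of the 10 genes it was highest in culture 3 of CtrV ut and in culture 1 elsewhere, with 47.3, 66.5 and 107 CPM in CtrV ut, 131, 43.7 and 41.2 in CtrV OVA, 867, 547 and 429.9 in EKO ut and 1160.1, 384 and 652 in EKO OVA. Cultures 2 and 3 alone gave 3.57 and 2.53. Fabp5, a fatty acid carrier, passed the filter through EKO libraries alone, so it could be tested only because it was high there. It was called at 2.76 with OVA (adjusted p = 0.0069, edgeR) and 1.98 without (adjusted p = 0.032), at no more than 1.58 CPM. The call with OVA ended without the block (2.73, adjusted p = 0.075) or without CtrV OVA culture 1 (2.50), and that without OVA when EKO ut culture 1 (0.60), EKO ut culture 2 (1.96) or CtrV ut culture 1 (0.85) was left out. Without OVA, cultures 2 and 3 only gave 0.04. Samsn1 (0.82 and 0.55) and Adam8 (0.50 and 0.48) rose by less, and the call of Samsn1 without OVA ended when EKO ut culture 1 was left out (0.36, adjusted p = 0.059, edgeR). In culture 1, 4 of the 30 genes in CtrV OVA, 7 in EKO ut and 6 in EKO OVA were at least 2-fold higher, beside 0.874%, 1.57% and 0.994% of all tested genes, and 0 in CtrV ut.

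Genes of immature DCs and their precursors were listed for comparison, with earlier results of these data known, 12 in all with 10 tested. In both pulse states, 6 passed the test with a higher level in EKO-labelled cells and 1 with a lower level, and the median was 0.35 in each. Over all tested genes 25.1% were higher and 21.9% lower with OVA, and 24.5% and 21.9% without. Cx3cr1, among the higher genes in both pulse states, passed the filter through EKO libraries alone, so it could be tested only because it was high there. Ccr6 passed with 1 CtrV and 2 EKO libraries. Leaving out culture 1 of every group, 6 were higher in both pulse states, beside 22.4% and 21.5% of all tested genes. Lyz2, the lysozyme of myeloid cells, rose by 2.02 (SE 0.09) and 2.25 (SE 0.09), with 6.12 to 7.22 CPM in CtrV and 25.4 to 32.6 CPM in EKO-labelled libraries (1.89 and 2.21 with cultures 2 and 3 only). Cd209a, a C-type lectin of monocyte-derived DCs, rose by 2.00 (SE 0.18) and 2.47 (SE 0.19). Clec10a, another lectin receptor, fell by 0.47 with OVA (adjusted p = 5.4e-05, edgeR) and by 0.29 without. The call of Ccr1, a receptor for inflammatory chemokines, with OVA ended without the block (0.24, adjusted p = 0.126, edgeR) and when CtrV OVA culture 2 or 3 or EKO OVA culture 2 or 3 was left out (0.16 to 0.25). Without OVA, the fit without the block called 4 higher genes in place of 6. In culture 1, 1 of the 10 genes was at least 2-fold higher in EKO ut and 1 in EKO OVA. The shares over all tested genes were 1.57% and 0.994%.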

How the data were processed

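RNA of 12 Sp37A3 libraries from 4 groups of 3 cultures was sequenced with a stranded mRNA kit. The authors aligned reads to mm10 with STAR, handled them with SAMtools and counted 5′ read ends in merged exons per gene with featureCounts. They deposited these raw counts in 1 table of 55401 genes, and 28881 had a count. Strand use in counting is not given in the sources used here. Groups came from the sample labels, and 0 columns were left unused. Names and positions came from a GENCODE annotation of GRCm38, which matched 55141 genes and is not the authors' annotation.

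Counts were normalized by TMM and fitted in edgeR 4.0.16 (R 4.3.3) by quasi-likelihood over all 12 libraries with group and replicate number as covariates, in the 14079 genes for which 2 or more libraries exceeded 0 in log2 CPM. The common dispersion was 0.0059, and p-values were adjusted by Benjamini-Hochberg with a threshold of 0.05. Log2 CPM used a prior count of 3, and the filter one of 2. The floor was set at 3 counts, and floors and intervals of counts cover counting error only. The steps were tested on simulated data. Deviations of same-numbered libraries correlated above 0.1 in every pair for the line comparison with OVA (0.450, 0.295 and 0.298) and for OVA in EKO cells (0.711, 0.357 and 0.424). They did not for the line comparison without OVA and for OVA in CtrV cells. The pairing comes from the replicate numbers of the labels.

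The 10 genes and all lists were chosen with earlier results of these data known. Named were the 10 genes, all tested relatives, up to 2 genes with the highest and 2 with the lowest line difference with OVA in each role of the other lists, and the 5 nearest profiles; 1 gene that this rule names is not reported here. Ccr1, Socs5 and Ccr6 and other genes whose calls changed were named after their values were seen. Alternatives were RLE normalization, DESeq2 1.42.0, no filter, at least 10 counts in every library, a prior count of 0.5, no replicate block, the compared groups alone and leaving out each library. Cultures 2 and 3 only was added after the data were seen.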

Additional observations from a re-analysis of the deposited data

How the results depend on the processing

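No result that passed its test reversed under RLE normalization, DESeq2, no filter, a minimum of 10 counts, the compared groups alone, no replicate block and leaving out each library. Of the values that answer a comparison, 301 were within the limits of 1.5 times the count or 1 SD and 11 moved; of those of single genes, 2013 kept their side of the threshold, 19 came to pass it, 55 ceased to and 4 moved. Calls over all genes were 5177 to 6758 with OVA and 4797 to 6556 without. Higher list genes with OVA were 24 to 27 (programme), 6 to 9 (relatives) and 5 to 6 (immature), and without OVA 18 to 23, 7 to 11 and 4 to 6.

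With cultures 2 and 3 only, 1 relative (Socs5, adjusted p = 0.040, edgeR) was lower with and 1 without OVA, 2 immature genes (Clec10a and Ccr6) were lower with OVA, and 1 programme gene (Tnfrsf9) was lower without OVA. In this fit 1 member (Ramp3) and 4 genes in all passed for OVA in EKO-labelled cells. Over all tested genes 5 passed for the dependence, in which the members are only described. With no filter, 1 programme gene was lower with OVA. The median difference of culture 1 for the 10 genes ranged, leaving out 1 library in turn, from -0.72 to -0.37 in CtrV ut, 1.34 to 1.51 in CtrV OVA, 1.57 to 1.82 in EKO ut and 0.66 to 2.01 in EKO OVA.

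Without the replicate block, 5413 genes were called between the lines with OVA and 5337 without, and 0 in the OVA contrasts. Higher list genes were then 24 and 19 (programme), 7 and 8 (relatives) and 5 and 4 (immature) with and without OVA. Same-numbered libraries correlated by 0.0664, -0.00915 and 0.271 for the lines without OVA and by 0.0893, 0.185 and 0.385 for OVA in CtrV. These values do not settle whether same-numbered cultures belong together there. In the line comparison without OVA the block-free fit did not call Socs1 (0.32, adjusted p = 0.179, edgeR), Socs4 (0.22, 0.361), Relb (0.37, 0.0888), Fabp5 (2.04, 0.166), Ccr1 (0.31, 0.0546) and Fcgr2b (0.40, 0.0672). Relb was also lost without CtrV ut culture 1 or 3 or EKO ut culture 1 or 2, and Ccr1 and Fcgr2b without CtrV ut culture 2 or EKO ut culture 2, and Ccr1 also without EKO ut culture 3. In the compared groups alone, Socs4 (adjusted p = 0.0957, edgeR), Ramp1 (0.0801), Relb (0.0525) and Fabp5 (0.0992) lost their calls without OVA, and Socs4 (0.0318) and Tnfrsf9 (0.0266) were called with OVA. DESeq2 did not call Ramp1 (0.112) and Fabp5 (0.103) without OVA. Nfkb2 passed without OVA in DESeq2 (0.0302), RLE normalization (0.0490) and no filter (0.0238). Depth limits Ramp3, Ccr4, Adm and Fabp5, many of whose libraries lie near the floor.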

Other observations

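Of the 11 DC markers, 7 were highest in culture 1 of EKO ut and 7 in culture 1 of EKO OVA. The others were highest in culture 2 or 3. Over all tested genes, culture 1 was the highest for 42.1% and 38.4%. Flt3 and Batf3 were among the 7 in both groups, whereas in CtrV OVA Flt3 was highest in culture 3. This was noticed after their values were seen and was not tested. Flt3, the receptor that drives DC development, had 1.59, 1.83 and 1.92 CPM in CtrV ut, 1.49, 0.997 and 1.59 in CtrV OVA, 7.85, 1.81 and 1.80 in EKO ut and 7.35, 2.25 and 4.40 in EKO OVA. Batf3, a transcription factor of cross-presenting DCs, had 2.68, 3.37 and 4.29, then 4.59, 2.69 and 2.45, then 13.3, 6.96 and 5.72, and then 14.8, 6.08 and 10.6 CPM in the same order of groups and cultures.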
